A study of Arabidopsis thaliana with 18 samples.

Results

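The comparison described here set 3 Arabidopsis leaf arrays that over-express StZFP2, titled OEEV47 1-2 1h wound C, OEEV47 1-2 6h wound A and OEEV47 1-2 6h wound B, against the 3 wild-type arrays titled Col 1h wound A, B and C. Arrays of these over-expressors are called OE here, so the set is OE 1h C, OE 6h A and OE 6h B, 3 of 18 arrays in the series and 3 of 9 from OE plants. They were chosen by their correlations over all probe sets, because they correlated best with each other and, among the Col-0 groups, with leaves 1 h after wounding. That they hold OE leaves in the 1 h state is a hypothesis from array correlations, it differs from the labels of both 6 h arrays, and it was not tested. Every probe set was used in the choice, so the differences between these 6 arrays are given as a description, with values for each array and no test.

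The series measured total RNA of leaves on Affymetrix ATH1 arrays, 3 arrays lettered A, B and C in each of 6 groups. The OE plants over-express StZFP2, a potato C2H2 zinc finger protein, and were labelled unwounded control, 1 h and 6 h after wounding. The sample labels describe the OE material as OEEV47-1 and OEEV47-2 plants pooled together, whereas the series' own design text lists those lines as groups of their own. The Col-0 plants, the wild type, had the same 3 treatments, and the series asked what StZFP2 over-expression does to wound-induced transcription. None of the probe sets used here is named for the potato gene, and the transgene's signal was not used to check the labels. Nothing in the labels states that replicate arrays came from different plants, and the p-values given here cover the spread among these samples alone, which may be technical.

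A wounded leaf makes jasmonate from chloroplast lipids through lipoxygenases (LOX), allene oxide synthase (AOS), allene oxide cyclases (AOC) and the reductase OPR3. JAR1 joins the hormone to isoleucine, and the conjugate leads to the breakdown of the JAZ repressors, which frees MYC factors to activate their targets. Among those targets are the JAZ genes and the CYP94 enzymes that inactivate the conjugate. Calcium-binding proteins, ERF and WRKY factors and zinc finger genes of the C1-2i class, many of which carry a repression motif, are also induced early after a wound.

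The 3 OE arrays correlated with each other at Pearson r of 0.973 to 0.978 over 14838 probe sets, with a median of 0.975. These probe sets had a signal at or above the 40th percentile of their array on at least 3 of the 18 arrays. Against the 3 Col 1h arrays the 9 correlations ran between 0.953 and 0.971, with a median of 0.961. Against the unwounded Col-0 arrays they ran between 0.939 and 0.966, and the median was also 0.961. OE 1h C correlated at 0.969 with its best Col 1h array and at 0.966 with its best unwounded Col-0 array. OE 6h A correlated at 0.961 with each of the arrays closest to it in those groups, and OE 6h B at 0.971 with Col 1h and 0.963 with unwounded Col-0. Over all probe sets, then, the match to 1 h rather than to unwounded leaves was narrow, and the set is called here by its arrays. The Col 6h arrays were farther away, at 0.887 to 0.898, and so were the other 6 OE arrays, at 0.881 to 0.944. All these arrays share the platform and the scaling, and the correlations are a description.

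**Figure D1:**
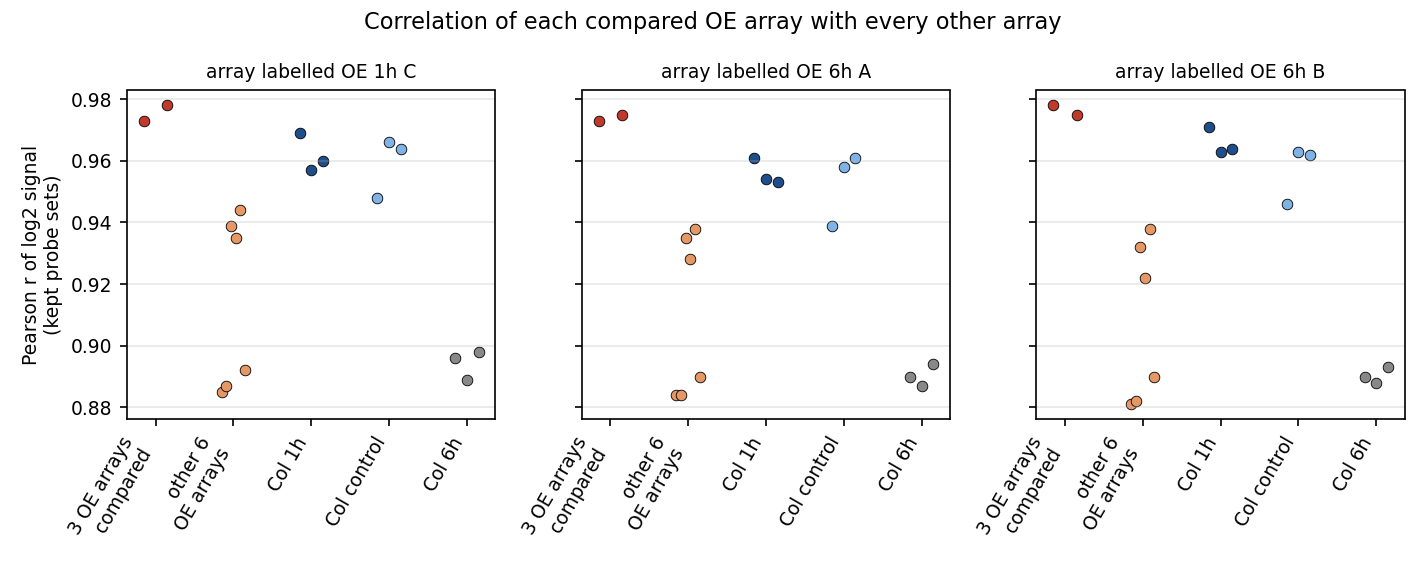
Pearson r of log2 signal over the kept probe sets between each of the 3 OE arrays compared (1 panel each) and every other array, 1 point per array, grouped on the horizontal axis. The Col 1h and Col control points lie close to each other in each panel, while Col 6h points lie below 0.90.

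Median signals ran between 127.1 and 160 over the 18 arrays, and precision is limited by the 3 arrays in each group. The actin 3' to 5' probe set ratio, a sign of RNA integrity, was 6.04 to 6.74 in the 3 OE arrays, against 7.28 to 10.7 in Col 1h. The GAPDH ratio was 3.38 to 4.32 in the 3 OE arrays, against 4.69 to 5.76 in Col 1h. Both ratios separated the groups, and their part in the differences given here was not tested. The leaf label was checked against markers. Of the photosynthesis list 23 of 24 members passed the filter, none of them differed by 1 or more on the log2 scale, and their summed signal was 507500 to 610800 in the 3 OE arrays, against 520200 to 575500 in Col 1h. Of the root markers 4 of 8 passed, with summed signals of 799.6 to 1190 in the 3 OE arrays and 628.2 to 999.5 in Col 1h, and of the flower and seed markers AG alone of 8 passed.

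A probe set was called different between the groups when their arrays did not overlap and the means differed by at least 1 on the log2 scale, which is 2-fold. By that rule 356 probe sets (2.4% of those kept) were called, 200 higher (1.35%) and 156 lower (1.05%) in the 3 OE arrays than in Col 1h. Without the limit on size, 2639 probe sets (17.8%) lay higher with no overlap and 1468 (9.89%) lower. The median difference over all kept genes was 0.06 on the log2 scale, and when each array was instead centred on its median it was -0.05. That centring gave 127 higher and 209 lower calls, and quantile normalization gave 151 higher and 176 lower, so which direction holds more calls depends on the scaling. By the same rule 309 probe sets (2.08%) separated the 3 OE arrays from unwounded Col-0 and 2137 (14.4%) separated them from Col 6h. Among the wild-type groups 513 (3.46%) separated control from Col 1h and 2828 (19.1%) separated Col 6h from Col 1h. The rule that chose the OE arrays used these values, so the counts describe how near the set lies to each group. By them the set lay slightly nearer to unwounded Col-0 than to Col 1h. The median absolute difference was 0.198 on the log2 scale from unwounded Col-0 and 0.205 from Col 1h. The smallest difference called was 1.0015, for the glutaredoxin gene GRX480, and the largest with no overlap that missed the limit was 0.9991, for AT4G13070.

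Genes that respond to wounding in the wild type placed the 3 OE arrays between unwounded and 1 h leaves. In a limma model of the 9 Col-0 arrays with Benjamini-Hochberg adjustment, 867 probe sets (5.84%) changed at 1 h relative to control at an adjusted p below 0.05, of which 541 (3.65%) rose and 326 (2.2%) fell. The median log2 signal of the 541 was 9.56 in OE 1h C, 9.60 in OE 6h A and 9.84 in OE 6h B. It was 10.08, 10.28 and 10.06 in Col 1h A, B and C, and 8.88, 9.10 and 9.04 in the control arrays. The other 6 OE arrays, whatever their label, lay between 8.10 and 8.69, below every unwounded Col-0 array. The median over the group means was 9.69 in the 3 OE arrays, against 10.13 in Col 1h. The 326 that fell mirrored this order. Their median was 8.61, 8.72 and 8.61 in the 3 OE arrays in the same order, 8.23, 8.08 and 8.18 in Col 1h and 9.02, 8.98 and 9.02 in control. Over the group means it was 8.66 in the 3 OE arrays and 8.14 in Col 1h, with 8.94 in control, so here the 3 OE arrays stood closer to control. The Col 1h and control arrays chose these probe sets, so their own medians are no independent measure. The choice of the 3 OE arrays used their signals on these probe sets too, so their place between the groups is a description. Without Col 1h B the model called 375 probe sets and without Col 1h C 496.

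**Figure D2:**
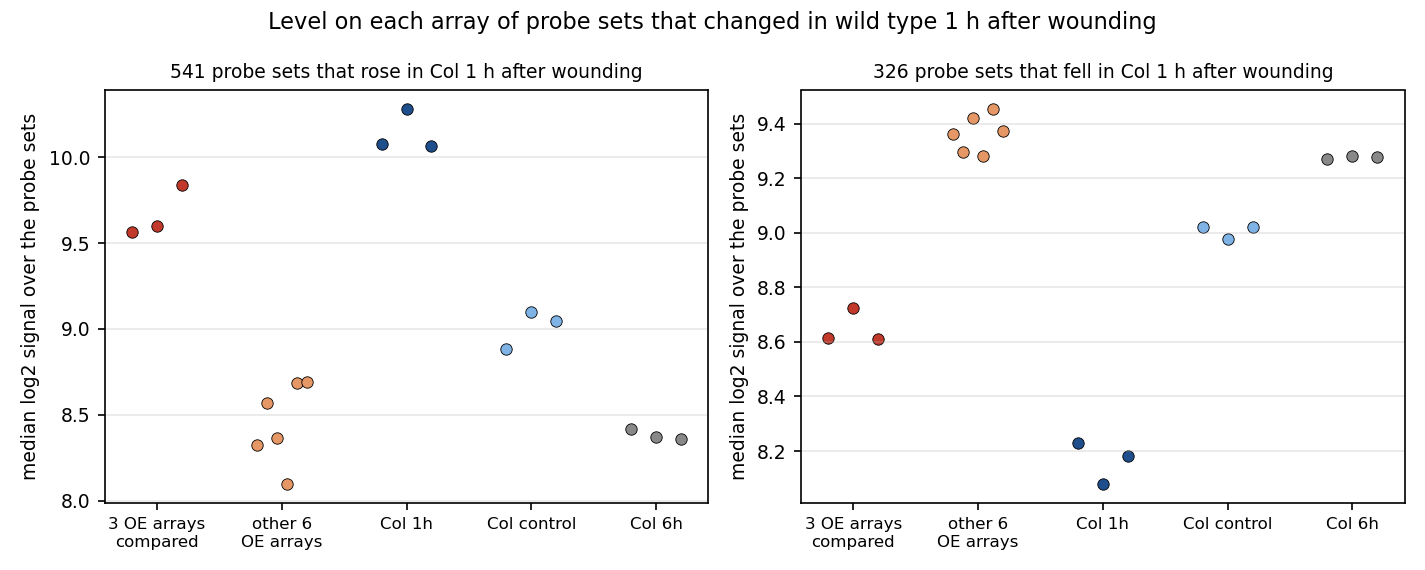
Median log2 signal on each of the 18 arrays over probe sets that rose (left) or fell (right) in Col-0 1 h after wounding by limma, 1 point per array. The 3 OE arrays compared lie between Col control and Col 1h in both panels, and the other 6 OE arrays lie beyond Col control on the side of Col 6h.

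Jasmonate genes stood at nearly the same level in the 3 OE arrays as in Col 1h. None of the 13 synthesis genes, 10 JAZ genes and 10 conjugation and breakdown genes that passed the filter was called. Since only 2.4% of all probe sets were, that count says nothing particular about these genes. The list medians were 0.08, -0.05 and -0.08 on the log2 scale beside 0.06 over all kept genes. The summed signal of the JAZ genes was 57020 to 71010 in the 3 OE arrays and 60270 to 74730 in Col 1h, against 31670 to 55990 in control. The other 6 OE arrays summed to only 23540 to 31420. The ranges of the 3 OE arrays and Col 1h overlapped, with the lowest OE array below every Col 1h array, and all 3 lay above every other OE array and every unwounded Col-0 array. JAZ5, a repressor gene, had signals of 8193, 8598 and 6583 in the 3 OE arrays and of 8337, 8357 and 7034 in Col 1h, with 2988 to 5888 in control. JAZ10, another, had 6544, 5753 and 5046 in the 3 OE arrays and 6359, 4339 and 4470 in Col 1h. Both genes overlapped between the groups.

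With no overlap, 1 of the 13 synthesis, 2 of the 10 JAZ and 1 of the 10 conjugation and breakdown genes lay lower in the 3 OE arrays. Higher with no overlap were 2, 0 and 1 of them. Of all probe sets 9.89% lay lower and 17.8% higher, so these small counts say little particular about jasmonate genes. All of these differences were below 2-fold. JAZ8, a repressor that lacks the usual degradation signal, had 1137, 1060 and 1161 in the 3 OE arrays and 1873, 2045 and 1794 in Col 1h. AOC3 had 5690, 4654 and 6351 in the 3 OE arrays and 7133, 7808 and 7192 in Col 1h. CYP94C1, which oxidises the active conjugate, had 2950, 3294 and 3006 in the 3 OE arrays and 4393, 4695 and 4807 in Col 1h. Every one of these OE values still lay above unwounded Col-0, where the highest array had 680.4 for JAZ8, 3784 for AOC3 and 2248 for CYP94C1. In the other direction AOC4 had 1385, 1164 and 986 in the 3 OE arrays and 833.5, 549.4 and 645.5 in Col 1h. JMT, which methylates jasmonate, had 2504, 2921 and 1974 in the 3 OE arrays and 1963, 1467 and 1507 in Col 1h. Among 12 jasmonate-responsive defence genes 1 was called higher and 2 lower, beside 1.35% and 1.05% of all probe sets. The higher call, TPS04, differed by 1.01 and was lost after median centring, at 0.90. TPS04, the terpene synthase that makes geranyllinalool, had 4587, 3175 and 3305 in the 3 OE arrays and 2716, 1474 and 1472 in Col 1h. The protease inhibitor gene KTI1 had 57.11, 104.4 and 262.4 in the 3 OE arrays and 479.2, 294.2 and 357.8 in Col 1h. The storage protein gene VSP1, whose probes also match another gene, overlapped.

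WRKY factors, which bind W-box sequences in defence genes, were mostly lower in the 3 OE arrays. Of 18 measured, 9 lay lower with no overlap and 1 higher, beside 9.89% and 17.8% of all probe sets. Of the 18, 4 were called lower and 1 higher, beside 1.05% and 1.35% of all, and the list median was -0.56, which was -0.62 after quantile normalization and -0.68 after median centring. WRKY30 had 64.49, 91.94 and 165.7 in the 3 OE arrays and 546.6, 748 and 657.7 in Col 1h. WRKY18 had 2621, 3172 and 3762 in the 3 OE arrays and 6081, 7454 and 5412 in Col 1h. WRKY22 had 129.9, 163.8 and 213.5 in the 3 OE arrays and 361, 400.2 and 396.2 in Col 1h. For WRKY18 and WRKY22 the OE values stood between Col 1h and unwounded Col-0, which had 1265 to 1666 and 113.4 to 121.9, whereas WRKY30 overlapped its unwounded range of 126.8 to 167.7. WRKY40, the partner of WRKY18 in limiting defence, had 2843, 1842 and 3057 in the 3 OE arrays and 4232, 5298 and 4026 in Col 1h. WRKY48 had 475.8, 633.1 and 762.4 in the 3 OE arrays and 1163, 1424 and 1162 in Col 1h. WRKY70 went the other way, with 1011, 700.7 and 1714 in the 3 OE arrays and 513.4, 360.1 and 551.3 in Col 1h, and overlapped the unwounded range of 1017 to 1557. In the Col-0 model 12 of the 18 WRKY genes rose at 1 h and 1 fell, beside 3.65% and 2.2% of all probe sets. That model used the same Col 1h arrays.

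The Arabidopsis C1-2i zinc finger genes, relatives of the transgene's class, did not move together. Of 9 measured, 4 lay lower with no overlap and 1 higher (9.89% and 17.8% of all probe sets), 2 were called lower (1.05% of all), and the list median was -0.10. ZAT11 had 56.96, 31.59 and 58.63 in the 3 OE arrays and 211.6, 248.9 and 256.1 in Col 1h. All 3 OE values were below the 40th percentile of their array, so the difference is given as a bound, at least 3.24-fold lower than in Col 1h. In this text such a bound sets the mean of the bright group against the mean 40th percentile of the dim group. ZAT6 had 957.3, 588.4 and 563.2 in the 3 OE arrays and 1424, 1482 and 978.3 in Col 1h. AZF2 was the higher gene, with 1159, 972.5 and 919 in the 3 OE arrays and 817, 751.3 and 635.9 in Col 1h. ZAT10 overlapped, with 2366, 1854 and 2460 in the 3 OE arrays and 1844, 1712 and 1865 in Col 1h.

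ERF and CBF factors of the ethylene and cold responses gave 4 called higher and 1 lower of 17, beside 1.35% and 1.05% of all probe sets, with a list median of 0.18. Quantile normalization gave 2 called higher and 1 lower and median centring 1 and 1, and under both CBF2, at 0.93, was no longer called. CBF2, a cold-response activator, had 256.2, 282.6 and 323.2 in the 3 OE arrays and 101.4, 182.5 and 145 in Col 1h. ERF104 had 105.5, 108.9 and 104.8 in the 3 OE arrays and 69.8, 30.11 and 32.14 in Col 1h. ERF104 is a dim gene, since 2 of its Col 1h signals lay below the 40th percentile of their array. ERF6 was lower, with 74.22, 17.48 and 61.32 in the 3 OE arrays and 111.3, 136.3 and 155.6 in Col 1h. Of 16 calcium and touch genes 2 were called higher and 1 lower, beside the same 1.35% and 1.05%. CML23, a calmodulin-like calcium sensor, had 447.8, 285 and 504.6 in the 3 OE arrays and 164.2, 111.3 and 170.9 in Col 1h. AT3G01830, a member of the same list, had 1828, 1483 and 3134 in the 3 OE arrays and 4097, 5256 and 3761 in Col 1h. None of 11 MAP kinase cascade genes was called, where 2.4% of all probe sets were, so the count says nothing particular about them.

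Glutaredoxins, small thiol enzymes that the deposited annotation places in cell redox homeostasis, were the list farthest from 0. All 6 measured of 7 lay lower in the 3 OE arrays with no overlap (9.89% of all probe sets) and 5 were called (1.05% of all), with a median of -1.53 that stayed between -1.64 and -1.53 under the other scalings tried. AT4G15680 had 129.6, 125.3 and 408.3 in the 3 OE arrays and 1630, 981.1 and 1271 in Col 1h. AT4G15690 had 80, 114.8 and 234.6 in the 3 OE arrays and 674.9, 607.8 and 554.7 in Col 1h. AT4G15660 had 385.3, 501.3 and 794.5 in the 3 OE arrays and 1498, 1391 and 1132 in Col 1h. OE 6h B was the highest of the 3 OE arrays for all of these genes and still below every Col 1h array. AT4G15700 and AT3G62950 were called lower too, at -1.28 and -1.74, while AT1G06830 differed by -0.50. The genes numbered AT4G15660 to AT4G15700 are close neighbours and near copies, so probes may read more than 1 of them and they are not separate measurements. GRX480, a glutaredoxin of the salicylic acid list, had 1393, 1090 and 1280 in the 3 OE arrays and 2505, 2644 and 2354 in Col 1h.

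Other stress lists held scattered calls, to be read beside the 1.35% of all probe sets called higher and the 1.05% called lower. Of 11 heat shock genes 3 were called lower and none higher, with a median of -0.48. The heat shock factor gene HSFA2 had 251.3, 69.99 and 89.61 in the 3 OE arrays and 365.3, 544.9 and 319.3 in Col 1h, and the chaperone gene HSP101 had 167.4, 144 and 101.4 in the 3 OE arrays and 311.5, 328.1 and 370.6 in Col 1h. Unwounded Col-0 spread widely for HSFA2, between 71.31 and 515.5. Of 7 senescence genes 2 were called lower, among them SAG21 with 2134, 1596 and 2796 in the 3 OE arrays and 3977, 5694 and 5484 in Col 1h. Of 13 salicylic acid genes GRX480 alone was called, and after quantile normalization, at -0.96, it was not. The pathogenesis marker PR1 stood at 455.3, 474.8 and 2443 in the 3 OE arrays and at 460.8, 378.3 and 436.1 in Col 1h. Among these compared arrays OE 6h B stood far above the others, but unwounded Col-0 had 788 to 2072. The ethylene synthesis gene ACS2 was called lower, with 74.14, 51.17 and 70.12 in the 3 OE arrays and 128.1, 166.7 and 157.1 in Col 1h. Of 17 abscisic acid and cold genes RAB18 and COR15B were called higher. For COR15B the lowest OE array, at 730, barely cleared the highest Col 1h array, at 724.5, and quantile normalization and median centring each gave 1 call in the list, RAB18.

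In metabolism the flavonoid list had the highest median among lists with at least 3 members, 0.57, with 3 of 12 genes called higher, beside 1.35% of all probe sets. These were the regulators PAP2 and MYBL2 and the reductase gene DFR. MYBL2, a repressor of the pathway, had 840.6, 1494 and 1177 in the 3 OE arrays and 731.6, 194.9 and 283.9 in Col 1h. DFR had 81.93, 76.4 and 67.59 in the 3 OE arrays and was below the 40th percentile in every Col 1h array, which makes it at least 1.07-fold higher in the 3 OE arrays. With no overlap 5 of the 12 lay higher and 2 lower, beside 17.8% and 9.89% of all probe sets. The lower ones were the enzyme genes CHI and F3H, so the list held shifts both ways, more of them higher. Entry into phenylpropanoids leaned lower. PAL2, which takes phenylalanine into the pathway, had 5956, 5007 and 5591 in the 3 OE arrays and 7734, 8108 and 8201 in Col 1h, and with C4H and 4CL1 it made 3 of 8 lower with no overlap, beside 9.89% of all. Of 13 aliphatic glucosinolate genes 7 lay higher with no overlap, beside 17.8% of all probe sets, and none was called, beside 1.35%. MAM1, which lengthens the methionine side chain, had 8739, 12260 and 7228 in the 3 OE arrays and 5722, 6286 and 6334 in Col 1h. Among 17 starch and sugar genes the darkness-induced genes DIN6 and SEN1 were called higher, beside 1.35% of all probe sets. In the same list 1 gene was called lower, at -2.71 on the log2 scale, beside 1.05% of all. DIN6 had 197.4, 259.9 and 416 in the 3 OE arrays and 179.2, 70.5 and 53.49 in Col 1h.

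By summed signal the morning clock genes, which peak around dawn, set the 3 OE arrays apart from the other OE arrays and not from Col 1h. Their summed signal was 9511 to 11460 in the 3 OE arrays and 11020 to 14200 in Col 1h, and 2771 to 8576 in the other 6 OE arrays. Unwounded Col-0 had 11980 to 15160, above all 3 OE arrays. None of the 6 was called, where 2.4% of all probe sets were, so that count says nothing particular about them. LHY had 4953, 4647 and 3758 in the 3 OE arrays and 5322, 7514 and 7632 in Col 1h, lower with no overlap. The labels do not give the hour at which leaves were taken, so the part of the time of day was not tested. Of 8 flowering genes 2 were called higher and 1 lower, beside 1.35% and 1.05% of all probe sets. The higher ones were MAF4 and MAF5, repressors related to FLC, and the lower one was FT, the mobile flowering signal. FT had 51.75, 66.01 and 53.27 in the 3 OE arrays and 114.5, 264.4 and 200.9 in Col 1h, at least 2.48-fold lower in the 3 OE arrays. No guard cell, vascular or epidermal marker was called, and with 2.4% of all probe sets called this sets them apart from no other list. The summed epidermal and trichome markers were 8435 to 10280 in the 3 OE arrays and 11000 to 13390 in Col 1h, with a list median of -0.15, and these sums separated the groups. The summed guard cell markers, 5642 to 5965 in the 3 OE arrays and 6848 to 7436 in Col 1h, were lower too. Gene by gene, however, the list ran the other way, with a median of 0.41. Of its 7 genes 3 lay higher and 1 lower with no overlap, beside 17.8% and 9.89% of all probe sets. The lower one, CYP86A2, had 4258, 4309 and 4540 in the 3 OE arrays and 6431, 5862 and 6234 in Col 1h and makes up most of that sum. The part of these markers in the other differences was not tested. In whole leaves, fewer cells of a type and less RNA per cell cannot be told apart.

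**Figure D3:**
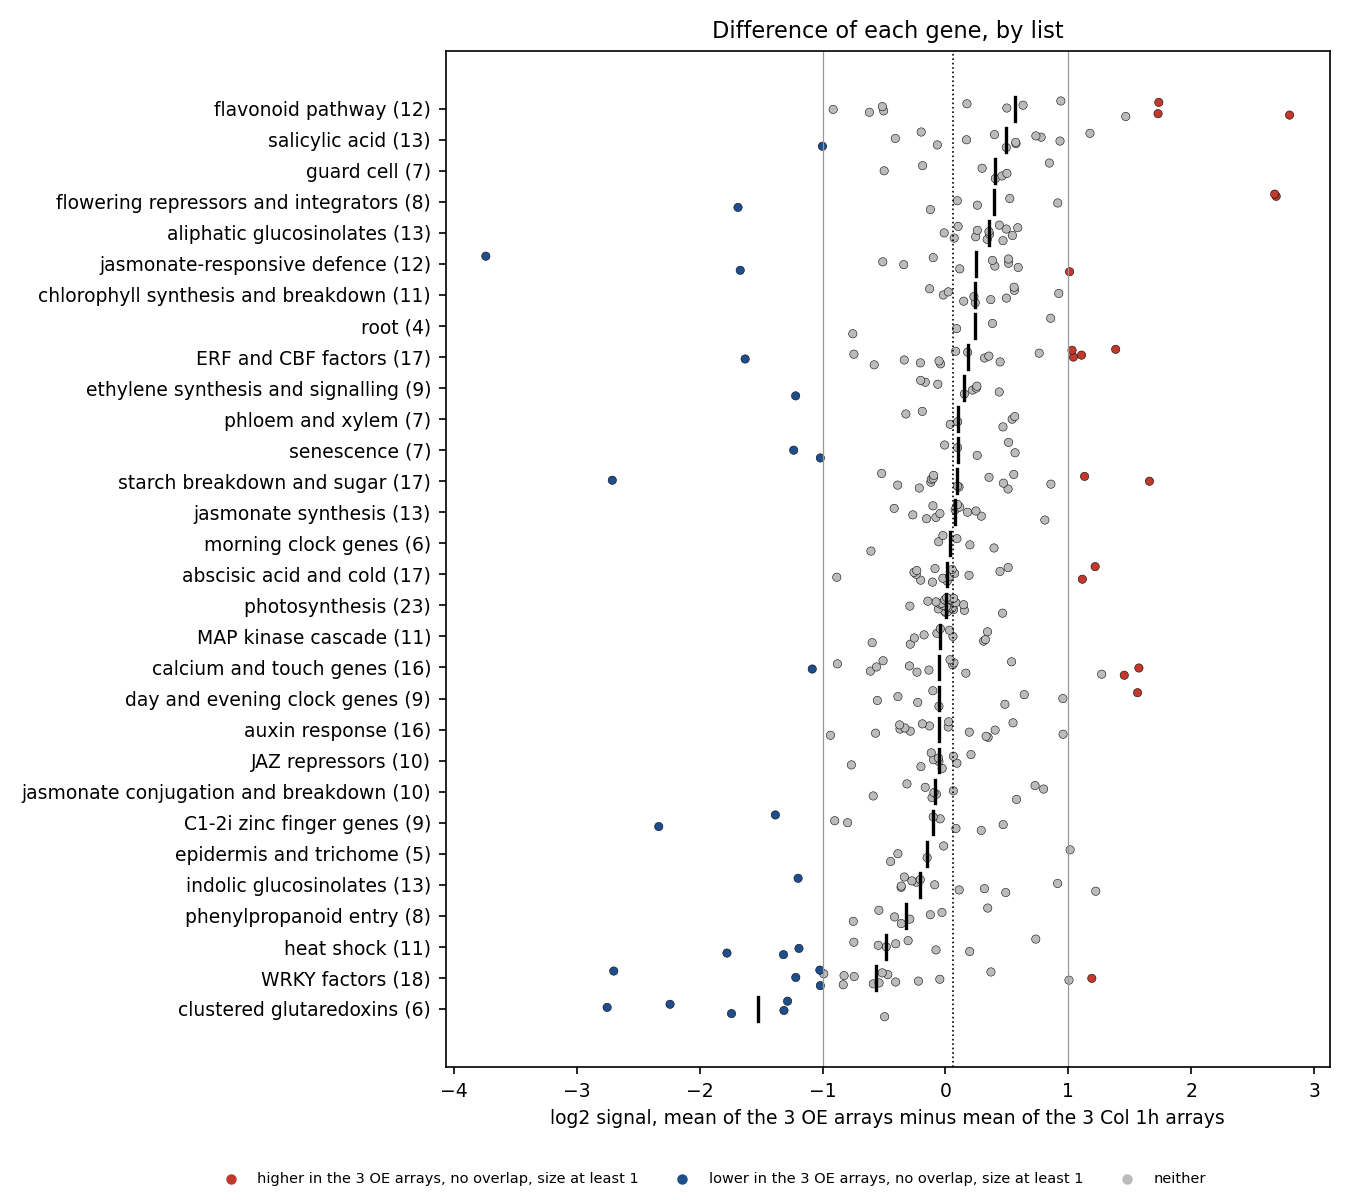
Difference of each gene between the mean of the 3 OE arrays and the mean of the 3 Col 1h arrays (log2 signal, horizontal), 1 point per gene in rows by list with the number of genes measured. Red points were called higher and blue lower, black bars are list medians and the dotted line is the median over all genes. The glutaredoxins and the WRKY factors have the lowest medians, -1.53 and -0.56, and the lists of jasmonate synthesis, JAZ repressors and jasmonate conjugation lie near the dotted line.

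Beyond the lists, the 15 genes highest and the 15 lowest in the 3 OE arrays, among calls that match 1 gene and are bright in the higher group, gave the leading differences. The highest was AT4G23680, annotated with defence response, with 271.3, 443.5 and 820.7 in the 3 OE arrays and 90.88, 113.9 and 41.55 in Col 1h. AT1G62510, annotated with lipid binding, had 933.8, 859.5 and 902.6 in the 3 OE arrays and 185.9, 193.6 and 211.8 in Col 1h. The OE arrays agree closely there and stood above unwounded Col-0, at 394.7 to 555.6. CCL, whose transcript is known to be unstable and under clock control, had 1074, 1410 and 1147 in the 3 OE arrays and 316.2, 293.2 and 233.1 in Col 1h. The Col 6h arrays had 10730 to 16450 for CCL and the other OE arrays 3180 to 21410, so this difference is small within the series. AT5G44400, annotated as an oxidoreductase, had 866.4, 919.4 and 768 in the 3 OE arrays and 204.9, 188.7 and 256.8 in Col 1h. CIPK20, a protein kinase, had 799.5, 949.4 and 906.9 in the 3 OE arrays and 488.8, 188.8 and 164.6 in Col 1h. Those OE values lay within the unwounded Col-0 range for CIPK20, 419.6 to 1088. Col 6h, at 2316 to 2419, and the other OE arrays, at 1725 to 2293, stood higher. YUC8, an enzyme of auxin synthesis, was at least 1.42-fold higher and LZF1, a zinc finger regulator of light responses, at least 1.98-fold higher in the 3 OE arrays. AT2G24210, a terpene synthase gene, had 478.5, 305.8 and 165 in the 3 OE arrays and 112.1, 39.84 and 99.33 in Col 1h. Its unwounded Col-0 range was 104.9 to 222, and OE 6h B lay within it. The remaining genes on the high side included SPL5, a regulator of phase change, ZIP7, a zinc transporter by the annotation, and AT1G68600, at 2.41 on the log2 scale.

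On the low side bHLH39, a transcription factor of the iron deficiency response, had 53.95, 39.79 and 34.37 in the 3 OE arrays and 153, 682.4 and 401.6 in Col 1h, at least 4.73-fold lower. Unwounded Col-0 had 256.9 to 459.4 and the other OE arrays 26.06 to 66.96, but Col 6h, at 17.3 to 51.92, was as low as the OE arrays. AT1G47400 had 186.5, 180.5 and 209.9 in the 3 OE arrays and 629.8, 1723 and 1629 in Col 1h, and AT5G05250 had 191.8, 268.1 and 170.8 in the 3 OE arrays and 677.8, 1905 and 1558 in Col 1h. For these 3 genes Col 1h A was the lowest of the Col 1h arrays by more than 2-fold. GRP5, a glycine-rich protein annotated as a cell wall component, had 188.6, 104.7 and 269.6 in the 3 OE arrays and 898.6, 1145 and 1189 in Col 1h. Its signal was 957.3 to 1010 in unwounded Col-0 and 1551 to 2380 in Col 6h, so all 9 Col-0 arrays stood above all 9 OE arrays, the highest of which had 561.6. XTH9, which remodels cell wall xyloglucan, had 340.7, 95.2 and 217.3 in the 3 OE arrays and 785.5, 584 and 899.9 in Col 1h. LTP3, a lipid transfer protein, was at least 2.15-fold lower. AT2G17660, annotated with response to nitrate, had 102.1, 177.3 and 231.9 in the 3 OE arrays and 442.9, 875.1 and 606.6 in Col 1h. AT1G51850, annotated as a kinase, was at least 1.89-fold lower in the 3 OE arrays, whose signals were 5.514, 4.286 and 34.85 against 177.6, 136.8 and 110.2 in Col 1h.

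**Figure D4:**
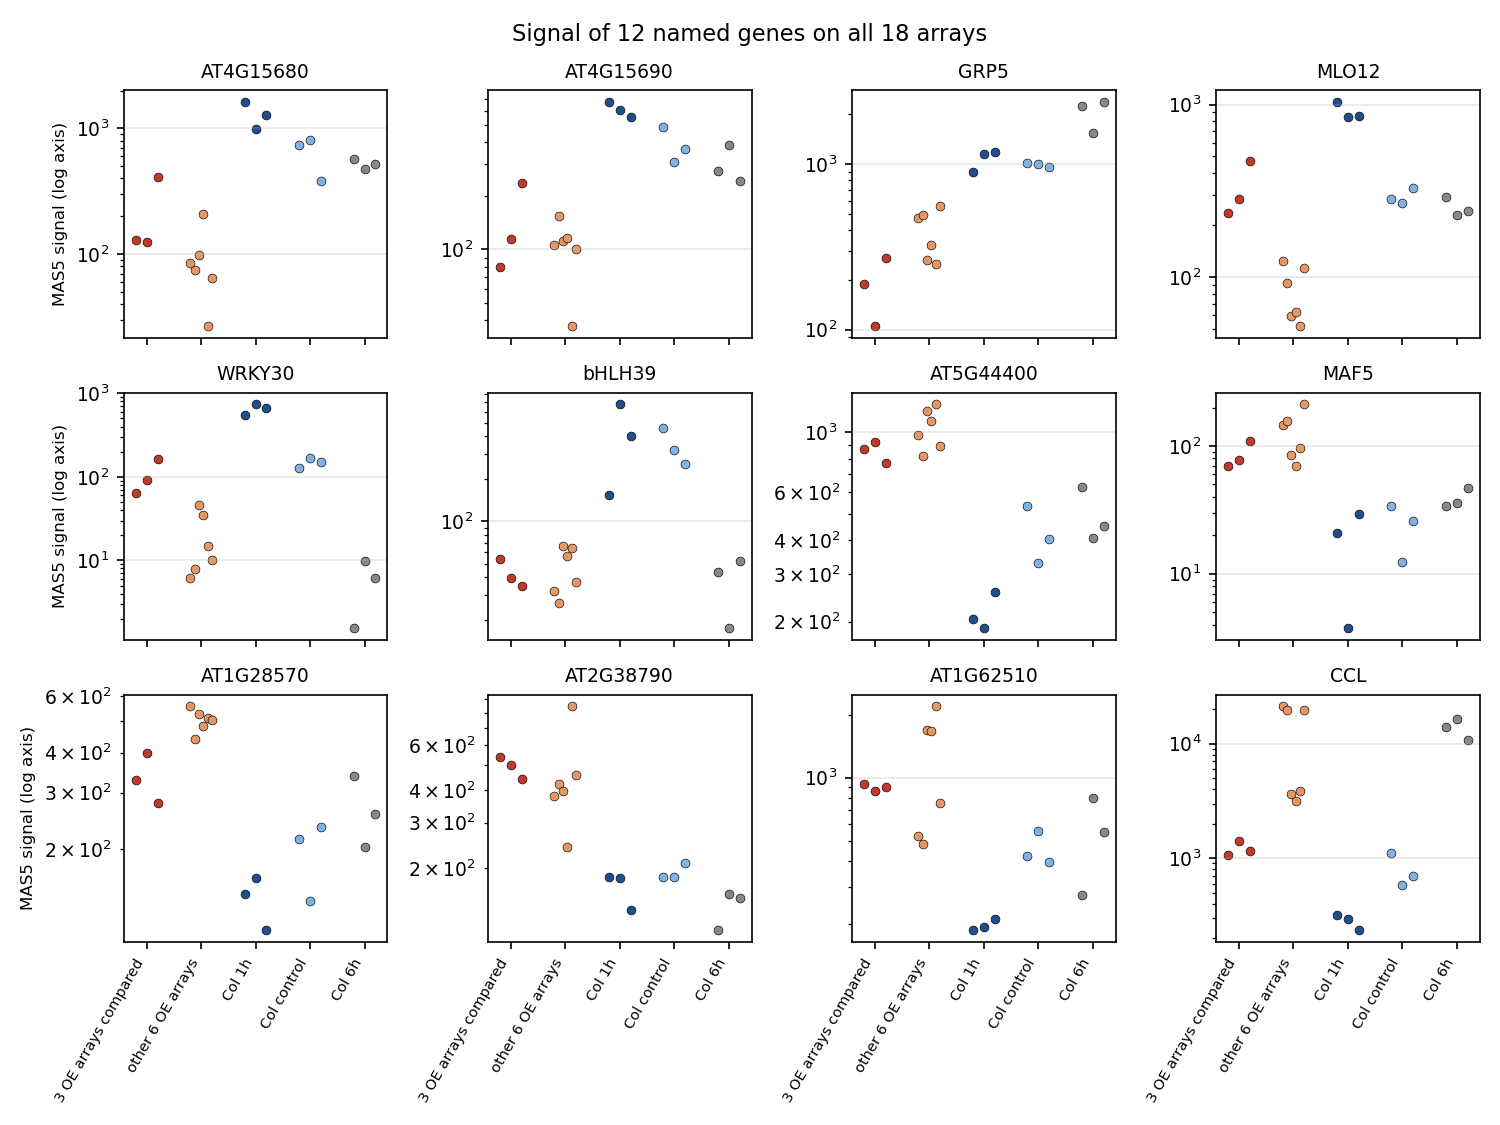
MAS5 signal (log axis, a scale of its own in each panel) of 12 named genes on all 18 arrays, 1 point per array, with the 3 OE arrays compared in red, the other 6 OE arrays in orange and Col-0 arrays in blue and grey. GRP5 is below every Col-0 array on all 9 OE arrays, while WRKY30 and bHLH39 are low in Col 6h too.

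A test on arrays that took no part in the comparison asked which of these differences also separate OE from Col-0 elsewhere. It set the other 6 OE arrays (control A, B and C, 1h A and B, 6h C) against 6 Col-0 arrays (control and 6h, A to C each), with genotype as its only term. The labelled treatments differ between the sides, so genotype and treatment cannot be fully told apart in it. These 6 OE arrays are also those that the choice of the set left over, so the test is not wholly free of that choice. With limma and Benjamini-Hochberg adjustment 58 probe sets (0.391%) passed at an adjusted p below 0.05, 19 higher (0.128%) and 39 lower (0.263%) in OE. At an unadjusted p below 0.05 the number was 1774. Of the 19, 15 also lay higher with no overlap in the 3 OE arrays than in Col 1h, where 17.8% of all did, and of the 39, 31 lay lower, where 9.89% did. None lay with no overlap on the opposite side. The 26 probe sets called in both were 44.8% of the 58 and 7.3% of the 356, so 330 of the 356 calls did not pass in the arrays outside.

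**Figure D5:**
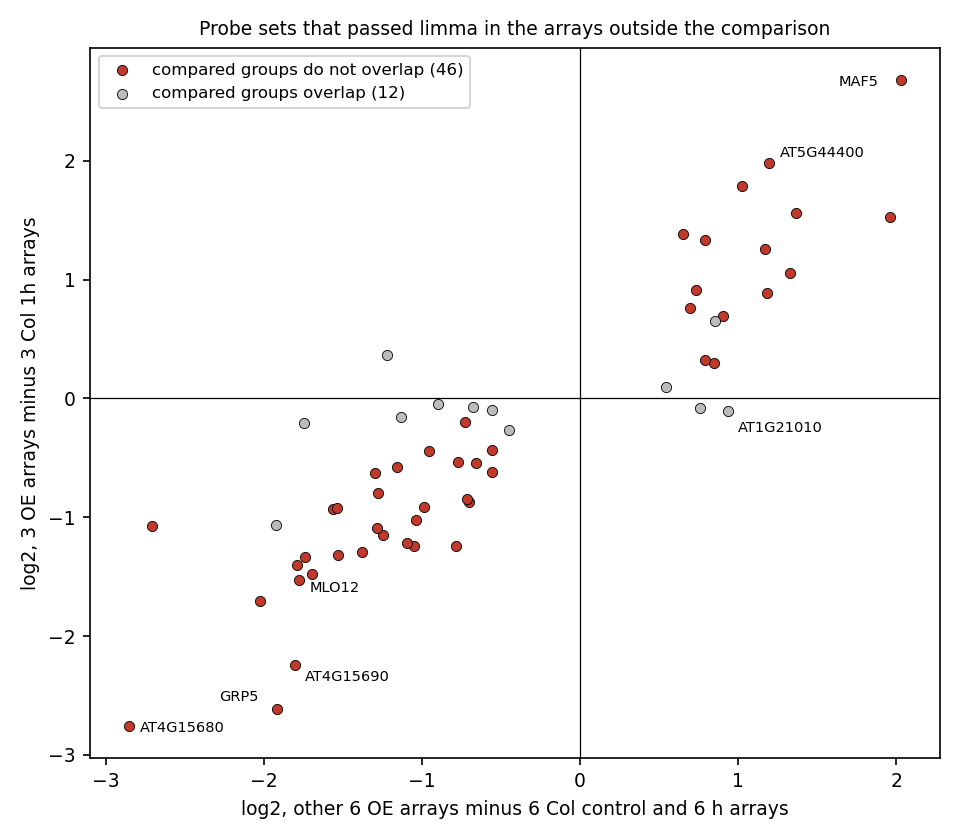
The 58 probe sets that passed limma in the 12 arrays outside the comparison, with their log2 change there (other 6 OE arrays minus 6 Col-0 arrays, horizontal) against their log2 difference in the comparison (3 OE arrays minus 3 Col 1h arrays, vertical), 1 point per probe set. For 46 points, in red, the compared groups do not overlap, all of them in the quadrants of equal sign, and AT1G21010 lies near 0 on the vertical axis.

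In those outside arrays 3 glutaredoxin genes fell in OE. AT4G15680 had signals between 26.63 and 207.7 in the 6 OE arrays and between 379.3 and 802.3 in the 6 Col-0 arrays, a log2 change of -2.85 ± 0.38 (SE) with a limma adjusted p of 0.00956. AT4G15690 fell by 1.81 ± 0.29 (limma adjusted p = 0.0282) and AT4G15660 by 1.53 ± 0.21 (limma adjusted p = 0.0104). MLO12, a membrane protein annotated with defence response, fell by 1.78 ± 0.22 (limma adjusted p = 0.0046). Its signals in the comparison were 235.2, 283.7 and 471.8 in the 3 OE arrays and 1039, 843.9 and 860.8 in Col 1h. GRP5 fell by 1.92 ± 0.29 (limma adjusted p = 0.0179). The receptor kinase gene IOS1 fell by 1.79 ± 0.33 (limma adjusted p = 0.0417), and it had 209.1, 397.8 and 578 in the 3 OE arrays and 817.7, 940.5 and 1149 in Col 1h. AT1G51820, another kinase by annotation, fell by 2.02 ± 0.38 (limma adjusted p = 0.0429). RAP2.6, an ERF factor that jasmonate and wounding induce, fell by 1.75 ± 0.33 outside (limma adjusted p = 0.044), yet the compared groups overlapped, at 4490, 4906 and 3837 in the 3 OE arrays and 6616, 4330 and 4507 in Col 1h. ACS2 also fell, by 1.09 ± 0.21 (limma adjusted p = 0.0491), and so did the wax lipid transfer gene LTPG1, by 0.96 ± 0.15 (limma adjusted p = 0.0206).

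Genes that rose in OE outside included AT5G44400, by 1.2 ± 0.16 (limma adjusted p = 0.00972), and AT1G28570, a lipase by annotation, by 1.17 ± 0.17 (limma adjusted p = 0.017). AT1G28570 had 328.7, 397.6 and 278 in the 3 OE arrays and 144.8, 162.8 and 111.9 in Col 1h. AT2G38790 rose by 1.37 ± 0.25 (limma adjusted p = 0.0355), and had 539.6, 502.6 and 442.6 in the 3 OE arrays and 185.6, 183.5 and 137.5 in Col 1h. MAF5 rose by 2.03 ± 0.35 (limma adjusted p = 0.0347). It had 69.96, 78.33 and 108.7 in the 3 OE arrays and was dim in every Col 1h array, at 20.85, 3.732 and 29.15, so the bound there is at least 1.2-fold higher in the 3 OE arrays. AT1G21010, like RAP2.6, passed outside while the compared groups overlapped. It rose outside by 0.93 ± 0.13 (limma adjusted p = 0.00972) but had 603.6, 810.3 and 839.3 in the 3 OE arrays and 913.7, 699.5 and 801.6 in Col 1h. Its unwounded Col-0 signal was 306.9 to 419.4, and in the Col-0 model it rose at 1 h by 1.10 ± 0.16 (limma adjusted p = 0.00218).

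These outside calls depended on single arrays. Leaving out Col control A, B or C left 21, 15 or 39 calls, Col 6h A, B or C 28, 20 or 26, OE control A, B or C 18, 19 or 19, OE 1h A or B 33 or 12, and OE 6h C 25. AT4G15680, AT4G15660, AT5G44400, MLO12, AT3G46280 and AT1G21010 passed without any of the 12 arrays in turn, and GRP5 and AT1G28570 without 11 of them. LTPG1 passed in 7 of the 12, AT4G15690 in 6, MAF5 and AT2G38790 in 2, and IOS1 and AT1G51820 in 1, while RAP2.6 and ACS2 passed in none. AT3G46280, which fell outside by 1.92 ± 0.23 (limma adjusted p = 0.0046), overlapped in the comparison, with 44.52, 53.74 and 88.83 in the 3 OE arrays and 167.4, 87.6 and 132.7 in Col 1h.

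Taken by the labels alone, OE 1h minus Col 1h in a limma model of all 18 arrays called 1643 probe sets (11.1%), 981 higher (6.61%) and 662 lower (4.46%) at a Benjamini-Hochberg adjusted p below 0.05. This contrast shares OE 1h C and all Col 1h arrays with the comparison above, so both are given side by side only. The count moved with single arrays, to 146 without OE 1h A, 136 without OE 1h B, 2919 without OE 1h C, 944 without Col 1h A, 206 without Col 1h B and 449 without Col 1h C. By the labels 11 of 18 WRKY genes fell and none rose, 4 of 6 glutaredoxins fell and 9 of 13 aliphatic glucosinolate genes rose. By the same labels 1 of 10 JAZ genes, JAZ8, fell by 2.25 ± 0.57 (limma adjusted p = 0.0248), against a difference of -0.77 between the 3 OE arrays and Col 1h. WRKY18 fell by 2.93 ± 0.56 (limma adjusted p = 0.00919), beside -0.99 in the 3 OE arrays. AT4G15690 fell by 3.12 ± 0.37 (limma adjusted p = 0.000845), beside -2.24.

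Among the 3 OE arrays themselves the median range of a probe set was 0.32 on the log2 scale, beside 0.36 among the Col 1h arrays, and 901 probe sets ranged over at least 1, beside 1037 in Col 1h. OE 1h C, which is labelled with another time than both others, differed from their mean by at least 1 in 118 of 12496 probe sets on which OE 6h A and B lay within 0.5 of each other. Of these 32 were higher and 86 lower in OE 1h C. LTP6, a lipid transfer protein, had 274.7 in OE 1h C and 8.197 and 9.157 in OE 6h A and B. PDF1, a gene of the shoot epidermis, had 316.5 in OE 1h C and 34.93 and 41.76 in the others, and AT4G22490, annotated with lipid binding, had 346.5 in OE 1h C and 34.75 and 46.22 in the others. All of these were also variable or low in Col 1h, where PDF1 had 112, 5.265 and 95.04. HSFA2 was higher in OE 1h C as well. On the low side AT1G68500 had 99.62 in OE 1h C and 396.7 and 300.3 in OE 6h A and B. BBX12, a B-box protein, had 23.29 in OE 1h C and 75.9 and 74.91 in the others. Set alone against Col 1h, OE 1h C gave 598 calls, while OE 6h A and B gave 420, a choice added after seeing the data. No overlap is easier to meet with fewer arrays, so these counts do not rank the arrays by distance from Col 1h.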

How the data were processed

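Leaf RNA was measured on 18 arrays with 1 colour. The submitters' processing notes name MAS5, with no version, and the deposited intensity is a linear signal. After trimming 2% of probe sets from both ends, every array's mean comes to 500. Of 22810 probe sets 64 were controls and 22591 carried a locus in the deposited annotation. Of those loci 22310 probe sets were found in a RefSeq gene table, which gave the symbols. A further 90 columns of values were not used here, since their names do not state the sample. The deposited intensity was taken to log2, and 14838 probe sets were kept that reached the 40th percentile of their array on at least 3 arrays. Differences between the 3 OE arrays and Col 1h are means of log2 signal without a test. Elsewhere limma 3.58.1 in R 4.3.3 was used with lmFit and eBayes with a variance trend, two-sided, with Benjamini-Hochberg adjustment over the 14838 and calls at an adjusted p below 0.05. The limma step was tested on simulated data. Presence calls were not used, so a gene was taken as dim below the 40th percentile. A gene with several probe sets is given by its brightest.

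The members and the 31 gene lists, with 384 entries of which 339 were measured above the filter, were chosen with earlier results of these data known. Named genes are the 15 highest and 15 lowest calls of the comparison, members of the lists, the 8 highest and 8 lowest that passed in the outside arrays, and the 6 highest and 6 lowest of OE 1h C against OE 6h A and B. Alternatives were quantile normalization, array medians subtracted, 16 added to the signal, all probe sets kept, only those at the 60th percentile kept, limma without a trend or with array weights, the replicate letter as a block, other sets of arrays and each array left out. Python 3.11.15 with matplotlib 3.10.9 made the figures.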

Additional observations from a re-analysis of the deposited data

Results flagged for a closer look

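Of 32 groups of arrays checked for a sample far from the others, 1 stood out. The glutaredoxin gene AT4G15690 had a signal of 37.01 in OE 1h B, while the other OE arrays outside the comparison had 100.9 to 153.4. OE 1h B is also the lowest of those arrays for its neighbours AT4G15680 and AT4G15700. Chance alone marks about 1 in 20 groups in this way.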

How the results depend on the processing

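For the 3 OE arrays against Col 1h, the 356 calls became 974 with no filter, 213 with the filter at the 60th percentile and 598 with OE 1h C alone, and 349 to 527 when 1 array was left out. No overlap is easier to meet with fewer arrays, so counts from fewer arrays are not like for like with the 356. No called gene that is named turned its direction under these alternatives, and 130 of 4900 values of named genes moved by more than the spread between arrays. For the arrays outside the comparison, the 58 calls became 30 with no filter and 91 with array weights. They were 12 to 39 with 1 array left out, 169 with genotype as the only term over all 18 arrays and 1546 with the unwounded arrays as labelled. With the letters A, B and C as a replicate block 13 were called. By the labels at 1 h, the 1643 calls became 5097 with array weights and 924 with the 6 arrays alone, and ran between 136 and 2919 with 1 array left out. Calls higher were 59.7% of the total, 49.8% after quantile normalization and 36.1% after median centring. For Col 1h minus control, the 867 calls became 1304 with array weights and 4 with all 18 arrays, and ran between 375 and 1196 with 1 array left out. Calls higher there were 62.4%, and 83.5% after median centring. The cause of these shifts was not tested. With the replicate block the labelled 1 h contrast gave 1180 calls and Col 1h minus control 812. Deviations of same-lettered arrays correlated at -0.094 to 0.197 over the 5 pairs of whole groups checked, and in none of them was every letter above 0.1, so the letters were not taken to pair the samples. OE 1h and 6h arrays were not checked against the groups outside the comparison. Named genes that passed outside kept their call in 235 pairs of gene and setting and lost it in 111, none with a turned sign. The number of arrays and dim signals below the 40th percentile limit all of these values.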
